A study of Mus musculus with 2 samples.

Results

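The cytotoxic effector genes of lymphocytes are the 10 mouse genes Gzma, Gzmb, Gzmk, Prf1, Nkg7, Eomes, Tbx21, Lag3, Pdcd1 and Tox, chosen by symbol from the 31053 genes that the count matrices list. All 10 were found in both matrices. They are described here in T cell-like cells, in cells like natural killer (NK) cells or group 1 innate lymphoid cells (ILC1), and in the other liver cells of each library.

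The study profiled mixed liver cell suspensions, that is hepatocytes with non-parenchymal cells, by droplet-based single-cell RNA sequencing. The pIVCL library came from C57BL/6 liver with the genotype label pIVCL, for partial inferior vena cava ligation, a narrowing of the vein that drains the liver, started at 8 to 10 weeks of age and kept for 6 weeks to raise portal pressure. The Control library came from C57BL/6 liver with the genotype label Control and a title that calls it healthy. The growth protocol describes the ligation for both samples, so pIVCL and Control are told apart by genotype label and title alone. Neither the animals per library nor a sham operation of the Control is stated in the labels.

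Cytotoxic lymphocytes kill target cells by releasing granules in which perforin, encoded by Prf1, opens the target's membrane to granzymes, the serine proteases encoded by Gzma, Gzmb and Gzmk. Their programme is set largely by the T-box transcription factors Eomes and T-bet (Tbx21) and is restrained by inhibitory receptors such as LAG-3 (Lag3) and PD-1 (Pdcd1). The liver is rich in such cells: circulating NK cells that carry Eomes, resident ILC1 that carry T-bet with little Eomes, NKT cells and CD8 T cells.

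Each group held 1 library, so no difference has a replicate check and no test was possible. Levels are given as UMI counts (distinct molecules) and as CPM, the UMIs of a gene for every 1000000 UMIs of the same cells, with exact 95% Poisson intervals. Ratios are pIVCL over Control with conditional exact 95% intervals. All intervals cover counting error only, not the spread between animals, and UMIs of 1 cell are not independent of each other. The libraries held 7042 barcodes in pIVCL and 3574 in Control, of which 5443 and 2721 were kept. Median UMIs per kept cell were 2005 in pIVCL and 5262 in Control, and 13 barcodes occurred in both libraries, 9 of them kept in both.

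Clusters of cells were named from marker lists that held none of the 10 genes, and the 10 genes were also kept out of the clustering. T cell-like cells numbered 319 in pIVCL and 188 in Control, with median depths of 2356 and 5100 UMIs. NK/ILC1-like cells numbered 99 in pIVCL and 29 in Control, with median depths of 2469 and 4694 UMIs. Summed over 14 hepatocyte genes, T cell-like cells had 22144 CPM in pIVCL and 9939.7 CPM in Control, and NK/ILC1-like cells had 20051 CPM in pIVCL and 10684 CPM in Control. Hepatocyte transcripts thus moved with the library, and its part in the ratios was not tested beyond an alternative in which those genes were left out of the totals.

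The T cell-like class was held mainly by different clusters in the libraries, which bears on every ratio in it. A cluster led by Cd8b1, Ccl5 and Tcf7 had 243 cells in pIVCL and 44 in Control, while a cluster led by Cxcr6 and Cd3g had 76 cells in pIVCL and 144 in Control. With 1 library per group, such a split cannot be told apart from a difference between the libraries themselves. The NK/ILC1-like class was 1 cluster, but it also held cells with transcripts of the T cell receptor complex: 35 of 99 in pIVCL and 18 of 29 in Control had a UMI of Cd3d, Cd3e, Cd3g or Trac. Those cells had a median of 5 such UMIs in pIVCL and 18.5 in Control, so ratios in this class also compare cells of different makeup.

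The UMIs of 8 genes, Gzma, Gzmb, Gzmk, Prf1, Nkg7, Eomes, Tbx21 and Pdcd1, lay mostly in lymphocytes in both libraries. T cell-like and NK/ILC1-like cells together held 84.6% of all kept Gzma UMIs in pIVCL and 98.7% in Control. For Gzmb those shares were 71.8% in pIVCL and 98.8% in Control, and for Nkg7 they were 78.0% in pIVCL and 95.6% in Control. Prf1 had 90.4% of its UMIs there in pIVCL and 96.7% in Control, and Eomes had 91.1% in pIVCL and 91.7% in Control. Lag3 and Tox were spread more widely, with 17.9% of Lag3 UMIs in these lymphocytes in pIVCL and 32.6% in Control, and 45.0% of Tox UMIs in pIVCL and 23.7% in Control. cDC1-like cells, a class of dendritic cell, had 0 UMIs of any of the 10 genes in both libraries, which allows up to 8.24 CPM in pIVCL and 19.7 CPM in Control for each.

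**Figure D1:**
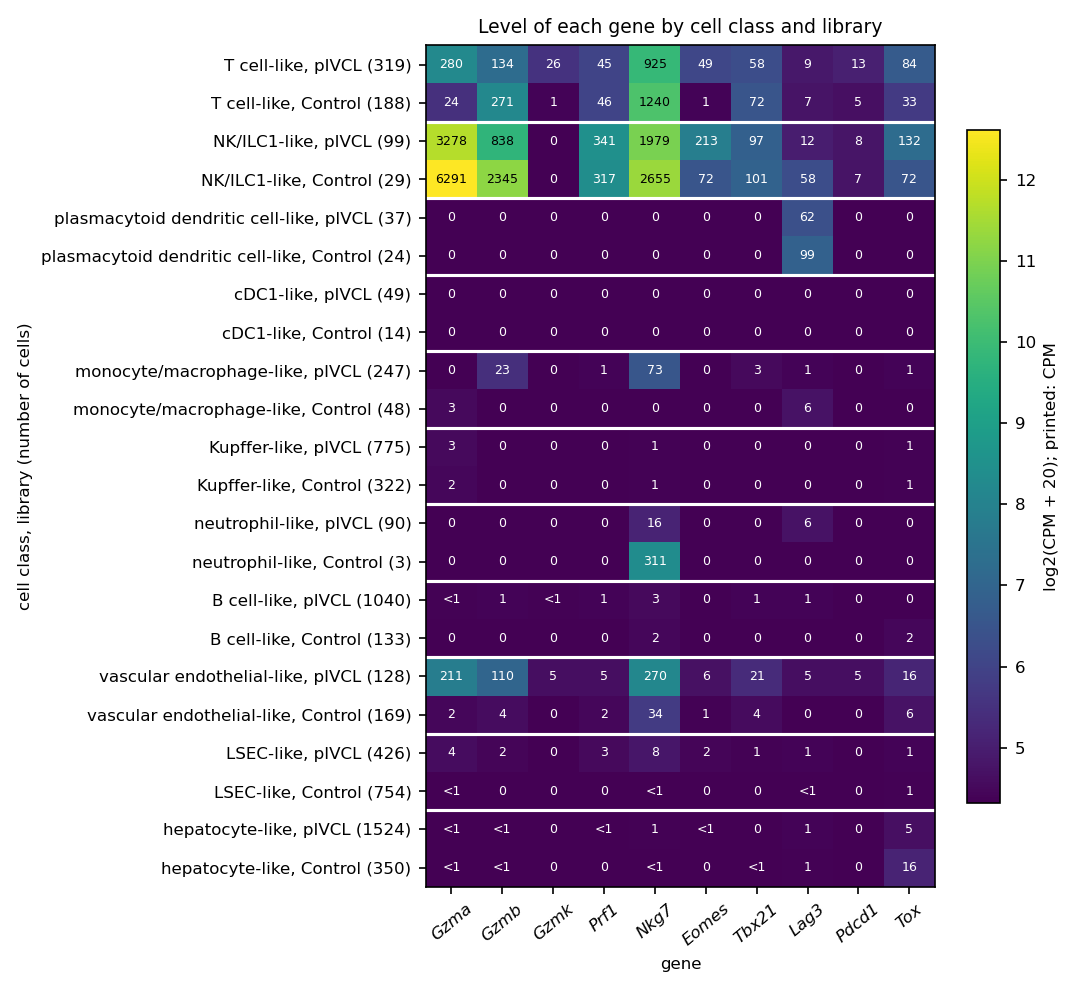
The heat map gives each gene's level in CPM (colour on a log2 scale after adding 20 CPM) in 11 cell classes, with pIVCL above Control within each class; the printed numbers are CPM. Gzma, Gzmb, Prf1 and Eomes were at their highest in NK/ILC1-like cells in both libraries, while Lag3 in Control was at its highest in plasmacytoid dendritic cell-like cells.

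Among the granule genes, Gzma encodes granzyme A, a trypsin-like protease. Gzma in NK/ILC1-like cells had 845 UMIs in 50 of 99 pIVCL cells and 872 UMIs in 19 of 29 Control cells. Its level there was 3278 CPM (3061 to 3507) in pIVCL and 6291 CPM (5880.0 to 6722) in Control, a ratio of 0.521 (0.474 to 0.574). The order of the libraries was the opposite in T cell-like cells, with 213 UMIs in 21 of 319 pIVCL cells and 23 UMIs in 4 of 188 Control cells. That gave 279.7 CPM (243 to 319.9) in pIVCL and 23.9 CPM (15.2 to 35.9) in Control, a ratio of 11.7 (7.59 to 18.8). Few cells carried these counts: the 3 cells highest in Gzma held 36.2% of the T cell-like UMIs in pIVCL and 95.7% in Control, and in NK/ILC1-like cells they held 17.3% in pIVCL and 32.2% in Control. Outside vascular endothelial-like cells, no other class of either library exceeded 4.18 CPM.

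Gzma lies on chromosome 13 at 113093825 to 113100981 on the minus strand (GRCm38, GENCODE M21), and Gzmk, the gene of granzyme K, lies on the same strand at 113171608 to 113225908, 70627 bases away. The promoters of these neighbours and of Gzmb (chromosome 14, 56258838 to 56262260, minus strand) are shown because the 3 granzymes differed in where they were detected: Gzma mainly in NK/ILC1-like cells, Gzmb in NK/ILC1-like and T cell-like cells, and Gzmk in T cell-like cells. Each is 300 bases of RefSeq GRCm38.p6, from 250 bases before the start that RefSeq gives the gene to 50 bases after it, at chr13:113100932-113101231 for Gzma, chr13:113180916-113181215 for Gzmk and chr14:56262285-56262584 for Gzmb, all 5′ to 3′ on the minus strand. That start is the same as in GENCODE for Gzma, lies just upstream of GENCODE's for Gzmb, and for Gzmk lies inside the gene as GENCODE spans it, which includes a longer transcript. Capitals mark the RUNX motif TGTGGT, read on either strand, in Gzma and Gzmb and the T-box core GGTGTGA in Gzmk.
Gzma: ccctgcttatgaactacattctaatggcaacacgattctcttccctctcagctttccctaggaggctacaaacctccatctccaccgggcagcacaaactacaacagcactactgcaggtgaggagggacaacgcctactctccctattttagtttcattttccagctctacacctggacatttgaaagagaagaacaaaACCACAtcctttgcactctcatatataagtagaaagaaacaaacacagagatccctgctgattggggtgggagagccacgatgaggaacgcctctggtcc
Gzmk: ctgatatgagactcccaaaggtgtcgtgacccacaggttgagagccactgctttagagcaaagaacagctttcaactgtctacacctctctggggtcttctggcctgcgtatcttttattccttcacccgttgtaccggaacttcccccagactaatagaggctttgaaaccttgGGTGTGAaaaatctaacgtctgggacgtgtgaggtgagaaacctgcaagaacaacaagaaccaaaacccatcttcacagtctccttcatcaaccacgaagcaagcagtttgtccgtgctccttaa
Gzmb: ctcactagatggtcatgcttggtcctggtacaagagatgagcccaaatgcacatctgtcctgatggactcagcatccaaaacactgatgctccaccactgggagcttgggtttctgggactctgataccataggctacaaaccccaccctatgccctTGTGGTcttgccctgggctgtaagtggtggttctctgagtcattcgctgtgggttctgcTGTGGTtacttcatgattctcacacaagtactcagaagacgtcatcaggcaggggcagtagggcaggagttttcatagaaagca
The T-box core, the letters that Eomes and T-bet are known to prefer, stood 75 bases before the RefSeq start of Gzmk and 13 bases before that of Nkg7. Of the 8 genes with a promoter in the RefSeq table, those 2 held it, beside 3.98% of all 32851 promoters of the same length. TGTGGT occurred in 4 of the 8 (Gzma, Gzmb, Prf1 and Nkg7) and in 16.8% of all promoters, and TTCNNNGAA, the core of STAT-type sites, in 2 of the 8 (Gzmb and Nkg7) and in 8.3% of all promoters. Both strands were searched, and no T-box match overlapped a RUNX match in the 8. A match describes the letters of this window and is no measurement of binding.

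Gzmb encodes granzyme B, the protease that cleaves caspases in the target. Gzmb in NK/ILC1-like cells had 216 UMIs in 61 of 99 pIVCL cells and 325 UMIs in 26 of 29 Control cells, which is 838 CPM (730.0 to 958) in pIVCL and 2345 CPM (2097 to 2614) in Control. The ratio was 0.357 (0.300 to 0.426). T cell-like cells had 102 Gzmb UMIs in 43 pIVCL cells and 260 UMIs in 72 Control cells, or 134 CPM (109 to 163) in pIVCL and 270.5 CPM (239 to 305.5) in Control, a ratio of 0.495 (0.390 to 0.625). Gzmb was thus lower in pIVCL in both classes as clustered. That direction did not hold within both T cell-like clusters: the Cd8b1/Tcf7-led cluster had 81.7 CPM in pIVCL and 39.8 CPM in Control (ratio 2.05, 0.960 to 5.04), and the Cxcr6/Cd3g-led cluster had 282 CPM in pIVCL and 332 CPM in Control (ratio 0.851, 0.625 to 1.14).

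Gzmk was detected in few cells. T cell-like cells had 20 Gzmk UMIs in 13 pIVCL cells and 1 UMI in 1 Control cell, or 26.3 CPM (16.0 to 40.6) in pIVCL and 1.04 CPM (0.0263 to 5.80) in Control. The ratio of 25.2 has a counting interval of 4.04 to 1046. NK/ILC1-like cells had 0 Gzmk UMIs in both libraries, which allows up to 11.6 CPM in pIVCL and 21.6 CPM in Control. The 20 pIVCL UMIs thus lay in T cell-like cells, with 4 more in vascular endothelial-like cells and 1 in a B cell-like cell.

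Prf1, the pore former, was close between the libraries in both classes. NK/ILC1-like cells had 88 Prf1 UMIs in 45 pIVCL cells and 44 UMIs in 16 Control cells, or 341 CPM (274 to 421) in pIVCL and 317 CPM (231 to 426) in Control, a ratio of 1.08 (0.741 to 1.58). T cell-like cells had 34 Prf1 UMIs in 27 pIVCL cells and 44 UMIs in 38 Control cells, or 44.7 CPM (30.9 to 62.4) in pIVCL and 45.8 CPM (33.3 to 61.5) in Control, a ratio of 0.975 (0.605 to 1.56). Neither interval leaves out 1, and with these counts equality is not shown either.

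Nkg7 encodes a membrane protein of cytotoxic granules that takes part in their release. Among NK/ILC1-like cells it was present in 93 of 99 pIVCL cells and 28 of 29 Control cells, at 1979 CPM (1811 to 2158) in pIVCL and 2655 CPM (2390.4 to 2940.4) in Control, a ratio of 0.745 (0.651 to 0.855). Among T cell-like cells it was present in 195 of 319 pIVCL cells and 164 of 188 Control cells, at 925 CPM (858 to 995.5) in pIVCL and 1240.25 CPM (1171 to 1313) in Control. The ratio there was 0.745 (0.678 to 0.819). Within the Cd8b1/Tcf7-led cluster Nkg7 was instead higher in pIVCL, with 837 CPM in pIVCL and 612 CPM in Control (ratio 1.37, 1.12 to 1.68), while the Cxcr6/Cd3g-led cluster had 1174 CPM in pIVCL and 1406 CPM in Control (ratio 0.835, 0.721 to 0.963).

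Of the transcription factors, Eomes was higher in pIVCL in both classes. NK/ILC1-like cells had 55 Eomes UMIs in 25 of 99 pIVCL cells and 10 UMIs in 4 of 29 Control cells, or 213 CPM (161 to 278) in pIVCL and 72.1 CPM (34.6 to 133) in Control, a ratio of 2.96 (1.49 to 6.51). The 3 highest cells held 34.5% of those UMIs in pIVCL and 90.0% in Control. T cell-like cells had 37 Eomes UMIs in 28 pIVCL cells and 1 UMI in 1 Control cell, or 48.6 CPM (34.2 to 67.0) in pIVCL and 1.04 CPM (0.0263 to 5.80) in Control, and the ratio of 46.7 has a counting interval of 7.88 to 1894. Nearly all of the pIVCL UMIs, 36 of 37, lay in the Cd8b1/Tcf7-led cluster, which had 63.9 CPM in pIVCL and 4.98 CPM in Control.

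Tbx21, the gene of T-bet, did not differ beyond counting error. NK/ILC1-like cells had 25 Tbx21 UMIs in 23 pIVCL cells and 14 UMIs in 10 Control cells, or 97.0 CPM (62.8 to 143) in pIVCL and 101 CPM (55.2 to 169.5) in Control, a ratio of 0.960 (0.480 to 2.00). T cell-like cells had 44 Tbx21 UMIs in 37 pIVCL cells and 69 UMIs in 51 Control cells, or 57.8 CPM (42.0 to 77.6) in pIVCL and 71.8 CPM (55.9 to 90.9) in Control, a ratio of 0.805 (0.539 to 1.19).

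Tox encodes a DNA-binding factor needed for the development of innate lymphoid cells and known for its high level in chronically stimulated CD8 T cells. T cell-like cells had 64 Tox UMIs in 50 pIVCL cells and 32 UMIs in 28 Control cells, or 84.1 CPM (64.7 to 107) in pIVCL and 33.3 CPM (22.8 to 47.0) in Control, a ratio of 2.52 (1.63 to 3.99). Both T cell-like clusters had more in pIVCL, with ratios of 1.82 (0.914 to 4.02) in the Cd8b1/Tcf7-led cluster and 2.26 (1.05 to 4.70) in the Cxcr6/Cd3g-led cluster. NK/ILC1-like cells had 34 Tox UMIs in 28 pIVCL cells and 10 UMIs in 9 Control cells, or 132 CPM (91.4 to 184) in pIVCL and 72.1 CPM (34.6 to 133) in Control, a ratio of 1.83 (0.883 to 4.15).

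The inhibitory receptors were near the limit of detection in lymphocytes. Pdcd1 had 10 UMIs in 8 T cell-like cells of pIVCL and 5 UMIs in 3 of Control, or 13.1 CPM (6.30 to 24.2) in pIVCL and 5.20 CPM (1.69 to 12.1) in Control, a ratio of 2.52 (0.786 to 9.41). Lag3 had 7 UMIs in 5 T cell-like cells of pIVCL and 7 UMIs in 2 of Control. NK/ILC1-like cells had 3 Lag3 UMIs in 3 pIVCL cells and 8 UMIs in 7 Control cells, 11.6 CPM (2.40 to 34.0) in pIVCL and 57.7 CPM (24.9 to 114) in Control, a ratio of 0.202 (0.0345 to 0.840). A difference in Pdcd1 was not detectable at this depth in either class.

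**Figure D2:**
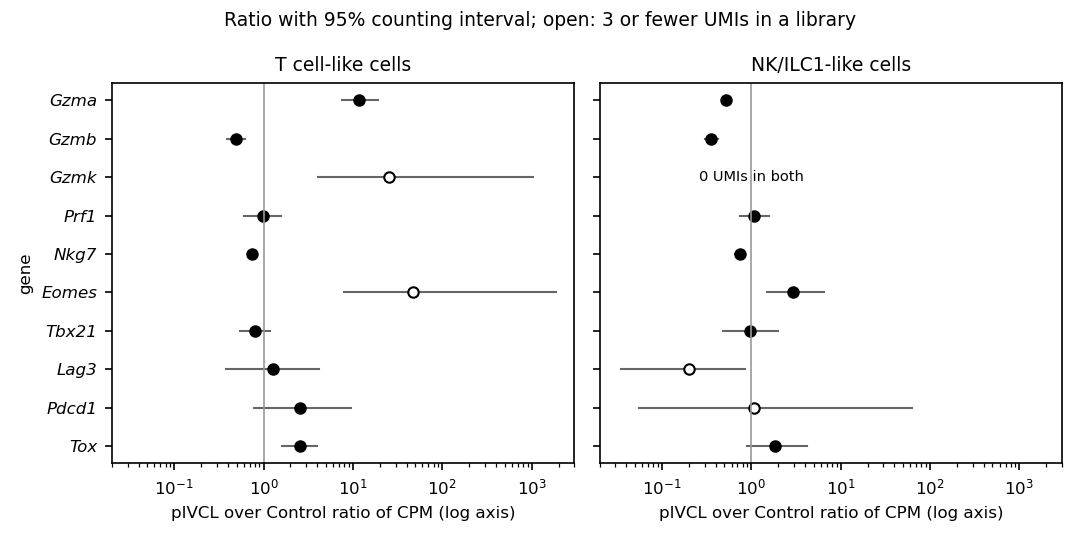
The plot gives the pIVCL over Control ratio of CPM (log axis) of each gene in T cell-like and NK/ILC1-like cells, with 95% intervals for counting error; open points have 3 or fewer UMIs in a library. Gzma stands at 11.7 in T cell-like and 0.521 in NK/ILC1-like cells, while Prf1 and Tbx21 lie near 1 in both.

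Read against all genes, a gene was called where the ratio after adding 20 CPM to both libraries was at least 2-fold and the class held at least 20 summed UMIs. In T cell-like cells 8 of the 10 genes reached that count (Lag3 and Pdcd1 did not), and 3 of the 8, Gzma, Gzmk and Eomes, were at least 2-fold higher in pIVCL, beside 2.61% of 7466 genes. None of the 8 was at least 2-fold lower, beside 0.616% of all genes, although Gzmb came near with a log2 ratio of -0.92. The median log2 ratio was 0.47 over the 8 and -0.01 over all genes. In NK/ILC1-like cells 7 of the 10 reached the count (Gzmk, Lag3 and Pdcd1 did not), of which Gzmb was at least 2-fold lower in pIVCL, beside 1.95% of 3238 genes, and Eomes at least 2-fold higher, beside 6.79%. The median log2 ratio there was -0.05 over the 7 and 0.02 over all genes. These genes were not drawn at random, so the shares serve as a scale only.

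Because the NK/ILC1-like class held cells with T cell receptor transcripts, the lymphocytes of both classes were also pooled and divided per cell by whether they had a UMI of Cd3d, Cd3e, Cd3g or Trac, an alternative added after seeing the data. Cells with such a UMI numbered 333 in pIVCL and 204 in Control, and cells without one 85 in pIVCL and 13 in Control. A cell of low depth can miss these transcripts, and cells with one had a median of 5 such UMIs in pIVCL and 17 in Control. Among the cells with a CD3 or Trac UMI, Gzma had 615 CPM in pIVCL and 503 CPM in Control, a ratio of 1.22 (1.08 to 1.38) in place of 11.7. Of the Gzma UMIs in cells with a CD3 or Trac UMI, 299 of 511 in pIVCL (17 cells) and 516 of 527 in Control (11 cells) lay in cells that the clustering had placed in the NK/ILC1-like class. The T cell-like ratio of 11.7 therefore holds for the class as clustered and not for all cells with a CD3 or Trac UMI.

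Gzmb, Eomes, Gzmk and Tox had the same direction among the cells with a CD3 or Trac UMI as in the T cell-like class. Gzmb had 298 CPM in pIVCL and 498 CPM in Control, a ratio of 0.599 (0.513 to 0.698). Eomes had 44 UMIs in pIVCL and 2 in Control, a ratio of 27.7 (7.23 to 236), and Gzmk had 20 UMIs in pIVCL and 0 in Control. Tox had 96.2 CPM in pIVCL and 39.1 CPM in Control, a ratio of 2.46 (1.67 to 3.67). The makeup of these cells also differed, with the CD8 chain gene Cd8b1 at 244 CPM in pIVCL and 93.6 CPM in Control and the NK receptor gene Klrb1c, which NKT cells share, at 116 CPM in pIVCL and 216 CPM in Control.

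Among the cells without a CD3 or Trac UMI, the granule genes were lower in pIVCL and Eomes was not. Gzma had 2911 CPM in pIVCL and 7026 CPM in Control, a ratio of 0.414 (0.362 to 0.474). Gzmb had 373 CPM in pIVCL and 1203 CPM in Control, a ratio of 0.310 (0.217 to 0.442), and Prf1 had 341 CPM in pIVCL and 573 CPM in Control, a ratio of 0.595 (0.380 to 0.951). Nkg7 had 1756 CPM in pIVCL and 2864 CPM in Control, a ratio of 0.613 (0.504 to 0.749). Eomes had 255.5 CPM in pIVCL and 172 CPM in Control, with a ratio of 1.49 whose interval of 0.722 to 3.45 includes 1. The Control values rest on 13 cells. Of the cells without such a UMI, 64 of 85 in pIVCL and 11 of 13 in Control came from the NK/ILC1-like class and the others from the T cell-like class. The part of this makeup in the ratios was not tested. In the whole NK/ILC1-like class Prf1 had a ratio of 1.08 (0.741 to 1.58).

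**Figure D3:**
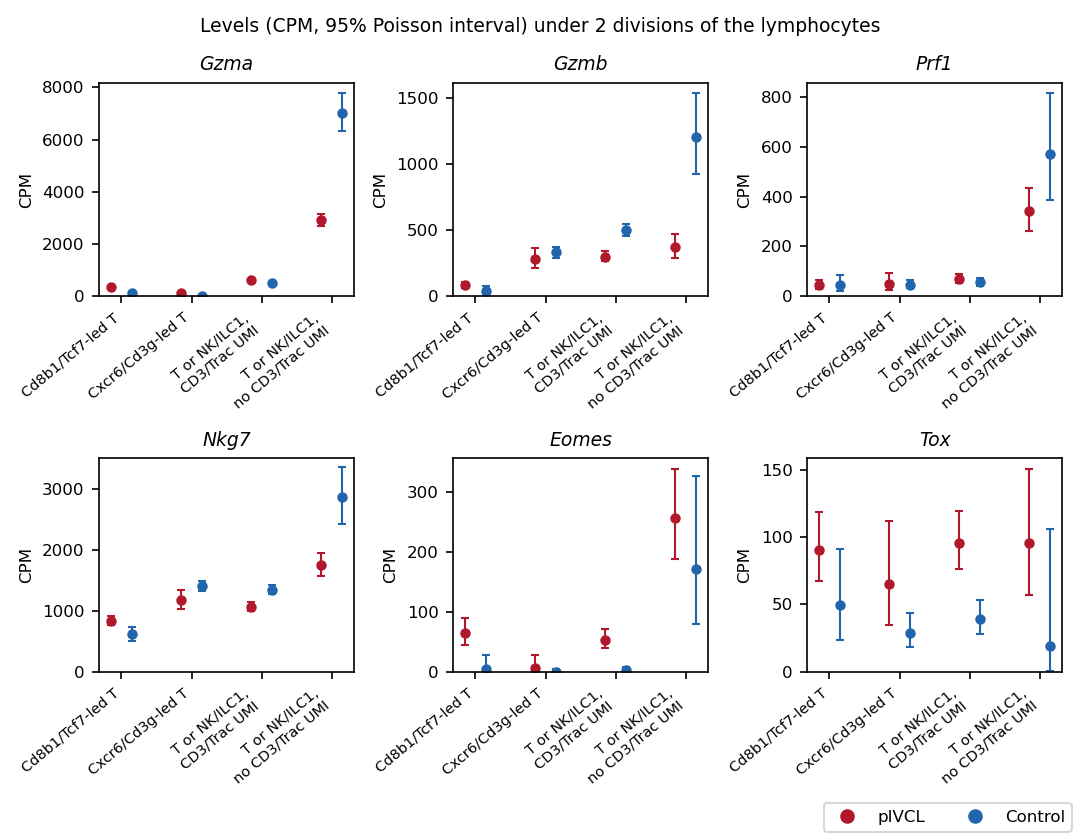
Points give the CPM of 6 genes, pIVCL left of Control, in the Cd8b1/Tcf7-led cluster, the Cxcr6/Cd3g-led cluster, and T or NK/ILC1-like cells with and without a CD3 or Trac UMI, and lines are 95% Poisson intervals. Gzmb is lower in pIVCL among cells with and without such a UMI but not in the Cd8b1/Tcf7-led cluster, and Eomes is higher in pIVCL in that cluster.

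The T cell-like and NK/ILC1-like cells, 418 in pIVCL and 217 in Control, were clustered again without the 10 genes to see which cells carried them. NK-like cells, led by Klra4, Klra8 and Cma1, numbered 34 in pIVCL and 8 in Control. Gzma was at 5273 CPM in pIVCL and 7285 CPM in Control in them, a ratio of 0.724 (0.621 to 0.845). Eomes was at 578 CPM in pIVCL and 258 CPM in Control (54 and 9 UMIs), a ratio of 2.24 (1.10 to 5.15). Prf1 was at 631 CPM in pIVCL and 717 CPM in Control, and Gzmb at 193 CPM in pIVCL and 459 CPM in Control, a ratio of 0.420 (0.202 to 0.879). The 54 pIVCL Eomes UMIs lay in 24 of the 34 cells, whereas the 9 Control UMIs lay in 3 of the 8 cells, 7 of them in 1 cell, so the Eomes ratio rests on few Control cells.

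ILC1-like cells, led by Gzmc, Cd7 and Ccl4, numbered 47 in pIVCL and 24 in Control and had little Eomes, with 2 UMIs in pIVCL and 1 in Control. Gzmb was at 1540.0 CPM in pIVCL and 2819.7 CPM in Control in them, a ratio of 0.546 (0.452 to 0.659), and Gzma at 2572 CPM in pIVCL and 5712 CPM in Control, a ratio of 0.450 (0.391 to 0.518). Lag3 had 1 UMI in pIVCL and 8 UMIs in 7 cells of Control, and Tox was at 215 CPM in pIVCL and 109 CPM in Control, a ratio of 1.98 (0.957 to 4.32). When the lymphocytes were clustered at resolution 0.5, no group was named ILC1-like. A CD3 or Trac UMI was found in 22 of 47 ILC1-like cells in pIVCL and 18 of 24 in Control. Cells with one had a median of 5 such UMIs in pIVCL and 18.5 in Control. These transcripts go against the ILC1 name for most of the Control cells, so the ratios of this group compare cells of different makeup. Cd8a stood at 25.8 CPM in pIVCL and 381 CPM in Control. Among the ILC1-like cells with such a UMI the Gzma ratio was 0.854 (0.732 to 0.994), and among the 25 pIVCL and 6 Control cells without one it was 0.0898 (0.0602 to 0.131), from 35 UMIs in 4 pIVCL cells and 142 UMIs in 3 Control cells.

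A group of T cells led by Gzmk, Nr4a2, Ccl3 and Ccl4 held 31 cells in pIVCL and 0 in Control, where 0 of 217 cells has an upper exact 95% bound of 1.69%. It had 499 CPM of Cd8a, 573 CPM of Cd8b1 and 554 CPM of Cd3e, but it met the naming rule for no subset and stays unnamed. Of its cells 22 came from the T cell-like and 9 from the NK/ILC1-like class. Gzma stood at 2513 CPM in it, with 136 UMIs in 13 cells. Its Gzmk level was 240 CPM (13 UMIs in 9 cells), its Gzmb level 850 CPM, its Tox level 277 CPM, its Lag3 level 129 CPM (7 UMIs in 5 cells) and its Pdcd1 level 111 CPM (6 UMIs in 4 cells). All 7 of those Lag3 UMIs and all 13 Gzmk UMIs lay in its 24 cells with a CD3 or Trac UMI. With 1 library per group, a cluster found in 1 library may be that library rather than a cell type. The group also depended on the setting. When these lymphocytes were clustered at resolution 0.5, no such group stood apart. A cluster led by Ccl4, Gzmc and Cd7, with 81 pIVCL and 26 Control cells, then had 13 Gzmk UMIs in 9 pIVCL cells. It matched the ILC1 list best but stayed unnamed.

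The reverse held for a group led by Cxcr6, Cd40lg and Il4, which matched the CD4 T list best and made up 16 cells or 3.83% of these lymphocytes in pIVCL and 133 cells or 61.3% in Control. Gzmb was at 408 CPM in pIVCL (17 UMIs) and 354 CPM in Control (251 UMIs) in them, a ratio of 1.15 (0.661 to 1.88). Those 251 Control UMIs stand beside 260 in all Control T cell-like cells, and 132 of its 133 Control cells belonged to that class. Nkg7 was at 1655 CPM in pIVCL and 1406 CPM in Control, Eomes had 0 UMIs in both libraries, and Tox was at 144 CPM in pIVCL (6 UMIs) and 31.0 CPM in Control (22 UMIs), a ratio of 4.64 (1.54 to 11.8). Its Cd4 level was 71.9 CPM in pIVCL and 45.1 CPM in Control, and it also carried Zbtb16, the NKT cell regulator, at 71.9 CPM in pIVCL and 78.9 CPM in Control.

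Regulatory T-like cells, 70 in pIVCL and 8 in Control, had 118 CPM of Gzmb in pIVCL (18 UMIs in 9 cells) and 0 UMIs in Control, which allows up to 96.5 CPM. Naive or central memory T-like cells, 52 in pIVCL and 21 in Control, had 12.8 CPM of Gzmb in pIVCL and 0 UMIs in Control, which allows up to 24.4 CPM. The Gzmb ratio interval includes 1 in both of these groups. Nkg7 in the naive or central memory T-like cells was at 493 CPM in pIVCL and 414 CPM in Control. The other 4 groups were led by hepatocyte, macrophage or endothelial genes and were left unnamed. They held 76, 61, 26 and 5 cells in pIVCL and 11, 7, 4 and 1 in Control. Of those pIVCL cells 74, 55, 22 and 3 came from the T cell-like class. Gzma had 36, 52, 38 and 0 UMIs in them in pIVCL, and Eomes 13, 8, 1 and 2. With such mixed groups left out, the T cell-like class held 165 pIVCL and 165 Control cells. The 6 genes with enough UMIs there kept log2 ratios within counting error of the reported values.

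**Figure D4:**
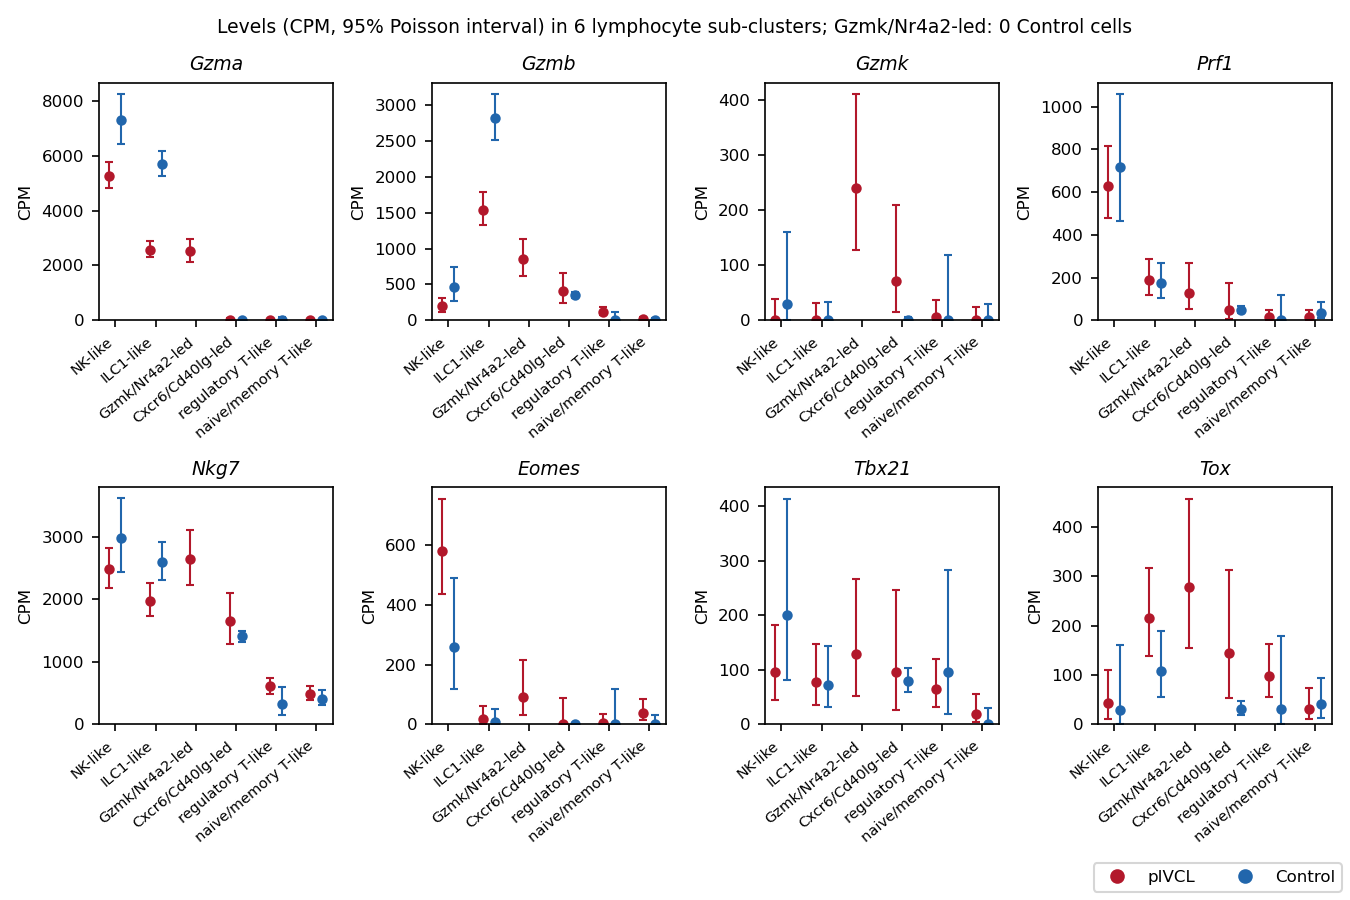
The plot gives the CPM of 8 genes, pIVCL left of Control, in 6 groups of lymphocytes from the second clustering, with 95% Poisson intervals. Eomes is highest in NK-like cells in both libraries, Gzmb is highest in ILC1-like cells, and the Gzmk/Nr4a2-led group has 31 pIVCL and 0 Control cells.

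Since the Control cells were deeper, shares of cells with a UMI were compared after thinning every cell to 500 UMIs, which left out no cell. Among NK/ILC1-like cells the share with Gzmb was 31.3% (22.4 to 41.4, exact binomial) in pIVCL and 51.7% (32.5 to 70.6) in Control, against 61.6% in pIVCL and 89.7% in Control before thinning. The share with Gzma was 40.4% (30.7 to 50.7) in pIVCL and 55.2% (35.7 to 73.6) in Control. The pIVCL and Control intervals overlap for both genes. Among T cell-like cells the share with Nkg7 was 30.1% (25.1 to 35.5) in pIVCL and 46.3% (39.0 to 53.7) in Control, against 61.1% in pIVCL and 87.2% in Control before thinning. Gzma was found in 4.70% (2.66 to 7.64) of thinned T cell-like cells in pIVCL and 1.06% (0.129 to 3.79) in Control, and Eomes in 1.57% in pIVCL and in 0 of 188 in Control, which allows up to 1.60%.

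Free RNA was read in B cell-like cells, which should lack most of these genes, and the granule genes were also read in hepatocyte-like cells. B cell-like cells, with median depths of 1839.5 UMIs in pIVCL and 3271 in Control, reached at most 0.192% for any of the 10 genes after thinning in pIVCL, for Nkg7, and 0 of 133 cells in Control, which allows up to 2.26%. Hepatocyte-like cells, with median depths of 4667 UMIs in pIVCL and 20625.5 in Control, reached 0.131% for Gzma in pIVCL. Their Tox shares, 0.262% in pIVCL and 0.857% in Control, are no measure of free RNA, since these cells held 41.7% of the Tox UMIs of kept cells in pIVCL and 62.1% in Control. The Gzma, Gzmb and Nkg7 shares in NK/ILC1-like cells and the Nkg7 shares in T cell-like cells lay well above these, whereas those of Lag3 in T cell-like cells (0.627% in pIVCL) were close to them.

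**Figure D5:**
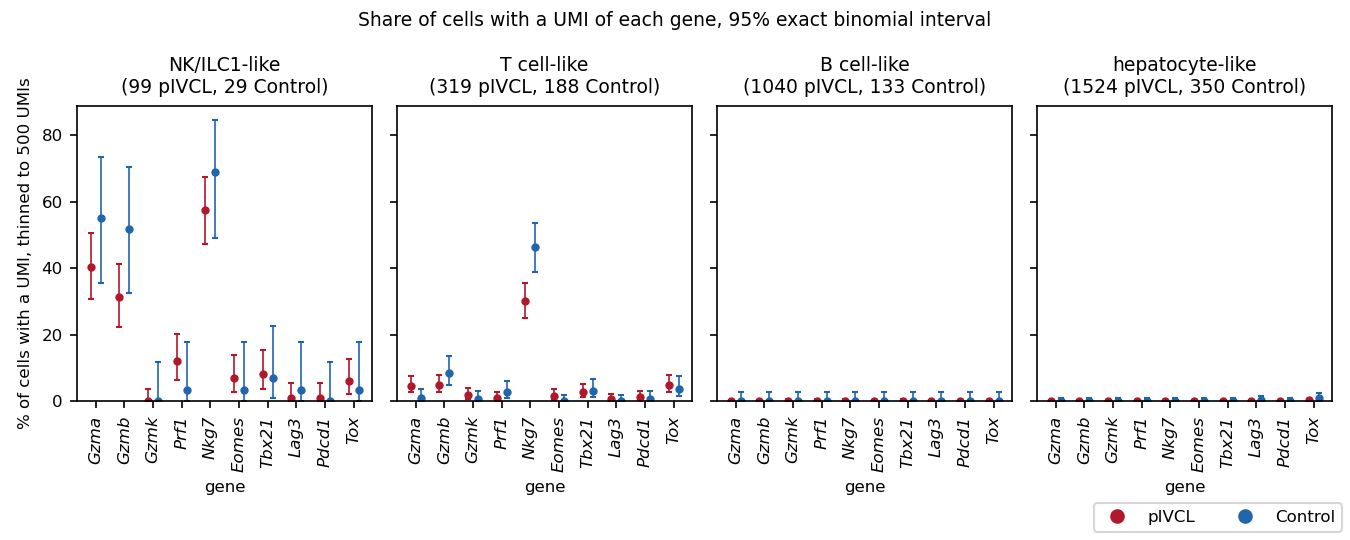
Points give the percentage of cells with at least 1 UMI of each gene after thinning to 500 UMIs, with exact 95% binomial intervals, in NK/ILC1-like, T cell-like, B cell-like and hepatocyte-like cells, pIVCL left of Control. The NK/ILC1-like shares of Gzma, Gzmb and Nkg7 stand above 30% in both libraries and the B cell-like shares stay at or below 0.192%.

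Detection of the genes together was counted in single NK/ILC1-like cells, without a test against their separate detection. All 4 of Gzma, Gzmb, Prf1 and Nkg7 were detected in 20 of 99 pIVCL cells and 12 of 29 Control cells. Every cell with Prf1 also had Nkg7, 45 of 45 in pIVCL and 16 of 16 in Control. Nkg7 was in 93 of 99 pIVCL cells and 28 of 29 Control cells, so nearly any gene would overlap it. Of the cells with Eomes, 24 of 25 in pIVCL and 4 of 4 in Control also had Gzma. Gzma and Gzmb were found together in 34 of 99 pIVCL cells and 17 of 29 Control cells. Gzma was in 50 pIVCL and 19 Control cells and Gzmb in 61 pIVCL and 26 Control cells. Much of their overlap thus follows from how common each was. In T cell-like cells all 4 granule genes were detected in 3 of 319 pIVCL cells and 1 of 188 Control cells, and none of the 4 in 117 pIVCL cells and 21 Control cells. Gzma was found in 3 of the 28 pIVCL T cell-like cells with Eomes and not in the 1 Control cell with it. Depth differed between the libraries, so these counts were not compared between them.

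Other genes of the killing pathway were read from lists of related genes. In T cell-like cells 0 of 6 tested genes of other granule proteins and 0 of 9 tested genes of granule release were at least 2-fold higher or lower in pIVCL. Rab27a, which tethers granules for release, had 32.8 CPM in pIVCL and 22.9 CPM in Control, and the granule protease gene Ctsw had 231 CPM in pIVCL and 369 CPM in Control. Of death ligands and cytokines, 0 of 6 were called, with Ifng, the gene of interferon gamma, at 113 CPM in pIVCL and 188 CPM in Control and Fasl at 97.2 CPM in pIVCL and 119 CPM in Control. In NK/ILC1-like cells 0 of 7 tested genes of other granule proteins and 0 of 4 of granule release were called, and Gzmc was at 198 CPM in pIVCL and 375 CPM in Control. These lists of granule proteins and granule release held no called gene in either class. Over all genes, 2.61% were called higher and 0.616% lower in T cell-like cells. In NK/ILC1-like cells those shares were 6.79% and 1.95%. With so few genes tested, the absence of a call is near those shares. The same shares stand beside the list counts that follow.

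Lymphocyte chemokines were higher in pIVCL where they were called. In T cell-like cells 3 of 4 were at least 2-fold higher, Ccl4 at 281 CPM in pIVCL and 13.5 CPM in Control, Ccl3 at 95.9 CPM in pIVCL and 4.16 CPM in Control, and Ccl5 at 4549 CPM in pIVCL and 2151 CPM in Control. In NK/ILC1-like cells 1 of 4 was, Ccl3 at 1172 CPM in pIVCL and 259.7 CPM in Control. Of the killer receptor genes, 5 of the 10 tested in T cell-like cells were at least 2-fold lower, among them Klrc1 at 46.0 CPM in pIVCL and 158 CPM in Control and Klrb1c at 76.2 CPM in pIVCL and 199 CPM in Control. In NK/ILC1-like cells 2 of 13 were at least 2-fold lower, with a median log2 ratio of 0.02 over the list beside 0.02 over all genes tested. Those 2 were Klra8 and Klra9, members of a family of similar genes, and the part of read mapping in their values was not tested.

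Among regulators, 1 of 12 effector transcription factors was called in T cell-like cells, Nr4a2, a gene induced by antigen receptor signalling, at 163 CPM in pIVCL and 19.8 CPM in Control. Of naive T cell genes 5 of 9 were at least 2-fold higher, with Tcf7 at 259 CPM in pIVCL and 70.8 CPM in Control. Other checkpoint receptors had 2 of 6 lower, Cd160 at 86.7 CPM in pIVCL and 268 CPM in Control and Entpd1 at 11.8 CPM in pIVCL and 45.8 CPM in Control. Tissue residency genes had 2 of 7 lower, Cxcr6 at 302 CPM in pIVCL and 855 CPM in Control and Cxcr3 at 149.7 CPM in pIVCL and 337 CPM in Control. Tcf7 and Cxcr6 are also among the leading genes of the 2 T cell-like clusters, whose cell numbers differed between the libraries. Of 16 tested dissociation stress genes 6 were higher in pIVCL T cell-like cells, with the list summing to 6577 CPM in pIVCL and 4965 CPM in Control. The part of the clusters or of stress in these values was not tested.

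Over 24 profiles of a class in a library with at least 30 cells each, the genes whose log2 levels followed each gene most closely were found by Pearson's r. NK/ILC1-like and plasmacytoid dendritic cell-like cells of Control, 29 and 24 cells, fell under that limit, so these classes had a pIVCL profile only. Genes that are high in the same single profile can have a high r with each other. The profiles also share libraries and depths, so r is a description and largely restates which class holds a gene. Gzma was followed most closely by Klra7 (0.94), Xcl1 (0.92) and Klre1 (0.91), and Gzmb by Xcl1 (0.99), Klrc2 (0.98) and Il2rb (0.98). Eomes was followed by Klra7 (0.99), Gzma (0.94) and Prf1 (0.93), and Nkg7 by Il2rb (0.98), Txk (0.97) and Gzmb (0.97). Tbx21 was followed by Ifng (1.00), Fasl (1.00) and Txk (0.99), and Prf1 by Klra7 (0.98), Klre1 (0.97) and Klrb1c (0.96). Gzmk was followed less closely, by Tcf7 (0.80), Cd8b1 (0.77) and Cd5 (0.76), and Pdcd1 by Tcf7 (0.96) and Cd247 (0.96). Lag3 followed genes of plasmacytoid dendritic cells, Runx2 (0.93), Ccr9 (0.90) and Klk1 (0.89), and Tox followed Ptpn4 (0.92), Xcl1 (0.87) and Sh2d1a (0.87).

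Outside T cell-like and NK/ILC1-like cells, Lag3 had its highest level in plasmacytoid dendritic cell-like cells, which are known to carry it. It had 10 UMIs in 8 of 37 pIVCL cells and 20 UMIs in 8 of 24 Control cells, or 61.8 CPM in pIVCL and 99.0 CPM in Control, a ratio of 0.624 (0.261 to 1.40). The difference lies within counting error. By share of kept Lag3 UMIs, these cells held 17.9% in pIVCL and 43.5% in Control, and hepatocyte-like cells 33.9% in pIVCL and 10.9% in Control.

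Tox was also found in hepatocyte-like cells, with 91 UMIs and 5.28 CPM in pIVCL and 110 UMIs and 15.7 CPM in Control, a ratio of 0.337 (0.252 to 0.448). In pIVCL, 79 of those UMIs came from a cluster of 676 pIVCL and 8 Control cells with 46.5 CPM of Glul, a marker of hepatocytes around the central vein. In Control, 95 came from a cluster of 2 pIVCL and 218 Control cells with 1852 CPM of Glul. The hepatocyte-like classes of the libraries were thus made of different clusters.

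Vascular endothelial-like cells of pIVCL carried lymphocyte genes. Gzma was at 211 CPM in pIVCL (172 UMIs in 8 of 128 cells) and 2.11 CPM in Control, Gzmb at 110.5 CPM in pIVCL and 4.22 CPM in Control, and Nkg7 at 270.0 CPM in pIVCL and 34.5 CPM in Control. At a finer clustering, 39 of the 128 pIVCL cells fell in a mixed cluster with T cell and sinusoidal endothelial (LSEC) genes, Cd3e at 152 CPM and Stab2 at 511 CPM, with a median of 6752.5 UMIs. Without those 39 cells Gzma was at 150.3 CPM in pIVCL, Gzmb at 76.1 CPM and Nkg7 at 143 CPM. In monocyte/macrophage-like cells of pIVCL 24 Gzmb UMIs lay in 2 cells, 22 of them in 1, and 75 Nkg7 UMIs lay in 12 cells, 30 of them in 1, while Control had 0 of both. Nkg7 in neutrophil-like cells had 5 UMIs in 4 of 90 pIVCL cells and 9 UMIs in 1 of 3 Control cells. The doublet caller had marked 3 cells in pIVCL and 5 in Control, far below the expected rate of 6% that it was given. Droplets with 2 cells are therefore likely to remain. Their number in each class was not measured, and their part in these values was not tested.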

How the data were processed

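The deposited files hold UMI counts for each gene and barcode of a library, as whole numbers with no normalization. The submitters' processing notes name Cell Ranger 3.0.2 and mm10 for these counts and no annotation release. Every deposited barcode had at least 500 UMIs. Coordinates come from GENCODE M21 (GRCm38), which holds 30934 of the 31053 gene identifiers (99.6%), and promoters from the RefSeq table for GRCm38.p6.

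From these counts, barcodes with under 200 genes (42 in pIVCL, 18 in Control) or over 25% mitochondrial UMIs (1554 in pIVCL, 830 in Control) were left out. Scrublet, run through scanpy 1.11.5 with an expected doublet rate of 6%, marked 3 cells in pIVCL and 5 in Control, so it probably missed doublets. Cells of both libraries were clustered together (2000 variable genes, 30 components, 20 neighbours, Leiden resolution 1, leidenalg 0.10.2) with the 10 genes barred from the variable genes, which gave 25 clusters. Clusters were named "-like" from 21 lists of 185 markers that hold none of the 10 genes; 15 classes were named and 2 clusters stayed unnamed. T cell-like and NK/ILC1-like cells were clustered again the same way (1500 variable genes, 20 components, 15 neighbours), into 10 groups read with 9 subset lists. The monocyte/macrophage-like cluster was also led by Igha and Jchain.

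UMIs were summed per class and library and divided by the class total (CPM). Log2 ratios of all genes were formed after adding 20 CPM, in genes with at least 20 summed UMIs, and called at 2-fold; this scale understates differences of low genes. Intervals are exact (Poisson, Clopper-Pearson binomial, conditional binomial for ratios) at 95%, and the limit for a count of 0 is 3 UMIs. With 1 library per group no test was run. The genes named beside the 10 are, of each of 14 related lists, those with the largest absolute log2 ratio among genes with enough UMIs, and the 3 genes most like each member among genes with at least 200 UMIs; 137 of 139 listed symbols were found. A few of the genes this rule names are not reported here. The CD3 chains, Trac, Cd8a, Cd8b1, Cd4, Klrb1c, Zbtb16, Glul and Stab2 were named after their values were seen, to describe cells. The genes and lists were chosen with earlier results of these data known. The results were recomputed under 16 other settings, and 4 more were added after seeing the data. The code was tested on simulated counts.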

Additional observations from a re-analysis of the deposited data

Results flagged for a closer look

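The Gzma ratio ran in opposite directions in the lymphocyte classes: pIVCL over Control was 11.7 in T cell-like cells and 0.521 in NK/ILC1-like cells. With 1 library per group the difference between these ratios was not tested. The T cell-like value rests on 21 pIVCL and 4 Control cells, and it was 3.13 (2.01 to 5.12) within the Cd8b1/Tcf7-led cluster, 76.6 (12.3 to 3175) within the Cxcr6/Cd3g-led cluster (20 UMIs in 4 pIVCL cells and 1 UMI in 1 Control cell) and 1.22 (1.08 to 1.38) among all lymphocytes with a CD3 or Trac UMI. In the lymphocytes without such a UMI it was 0.414 (0.362 to 0.474). Among lymphocytes with a UMI of a CD3 gene or of an alpha or beta chain constant-region gene of the T cell receptor, 399 in pIVCL and 215 in Control, it was 1.09 (0.988 to 1.19).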

How the results depend on the processing

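No paired analysis was possible because each group held 1 library and the labels carry no replicate numbers, and for the same reason no library could be left out. In T cell-like cells, 3 genes were at least 2-fold higher in pIVCL, against 1 when the 10 genes were allowed among the variable genes and 1 with 50 CPM added. In NK/ILC1-like cells, 1 gene was at least 2-fold lower, against 2 at resolution 0.5, with the mean of per-cell CPM, with genes of at least 5 summed UMIs, and with lymphocytes divided by a CD3 or Trac UMI. There 1 gene was at least 2-fold higher, against 0 with classes set per cell from marker UMIs and 0 with the CD3 or Trac division. The Gzma log2 ratio in T cell-like cells, 2.77, turned to -0.022 with classes set per cell from marker UMIs, and it was 0.34 with the 10 genes among the variable genes, 0.28 with the CD3 or Trac division, 1.57 with the mean of per-cell CPM and 1.90 with the stricter cell filter. The cause was not tested. Over the alternatives the Gzmb log2 ratio ran from -0.995 to -0.48 in T cell-like cells and from -1.64 to -1.23 in NK/ILC1-like cells, and that of Eomes from 0.95 to 3.15 in T cell-like and from 0.52 to 1.63 in NK/ILC1-like cells. Prf1 in NK/ILC1-like cells ran from -0.72 to 0.29. Of the log2 ratios in T cell-like cells under other settings, 104 stayed within counting error of the reported value, 11 moved past it and 1 turned. In NK/ILC1-like cells 87 stayed and 9 moved. The limit of at least 5 summed UMIs cannot change a log2 ratio, and it gave 8 of those 104 and 7 of those 87. With the 10 genes among the variable genes no NK/ILC1-like class formed, so that setting gave no value there. Its T cell-like class held 418 pIVCL and 217 Control cells, as many as the T cell-like and NK/ILC1-like classes together. The T cell-like values of that setting, 0.34 for Gzma among them, are thus those of a merged class. A division of lymphocytes by NK receptor and by CD3 or T cell receptor UMIs left 15 pIVCL and 1 Control NK/ILC1 cells, with a Gzma ratio of 0.362 (0.203 to 0.712) that rests on that 1 cell. Its other group, cells with a CD3 or T cell receptor UMI, held 399 of 418 pIVCL and 215 of 217 Control lymphocytes. That group therefore took in most NK/ILC1-like cells and is not a group of T cells alone. Its ratios were 1.09 (0.988 to 1.19) for Gzma, 0.587 (0.510 to 0.675) for Gzmb and 8.52 (4.52 to 17.7) for Eomes. Depth limits Lag3, Pdcd1 and Gzmk most, at 20 UMIs or fewer in each lymphocyte class and library.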

Other observations

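The ligands of LAG-3 and PD-1 were read in the cells that make them. Clec4g, the gene of the LAG-3 ligand LSECtin of sinusoidal endothelium, had 1287 CPM in pIVCL LSEC-like cells and 3234 CPM in Control LSEC-like cells, a ratio of 0.398 (0.380 to 0.416). Fgl1, a hepatocyte-secreted LAG-3 ligand, had 447 CPM in pIVCL hepatocyte-like cells and 258 CPM in Control hepatocyte-like cells, a ratio of 1.73 (1.64 to 1.82). Cd274, the gene of the PD-1 ligand PD-L1, had 15.9 CPM in pIVCL Kupffer-like cells (19 UMIs) and 38.7 CPM in Control Kupffer-like cells (54 UMIs), a ratio of 0.412 (0.230 to 0.705). In B cell-like cells Cd274 had 38.7 CPM in pIVCL (81 UMIs) and 28.4 CPM in Control (13 UMIs), a ratio of 1.36 (0.753 to 2.67), and in vascular endothelial-like cells the ratio was 1.41 (0.700 to 2.81). Lgals3, the gene of galectin-3, had 1624 CPM in pIVCL monocyte/macrophage-like cells and 1059 CPM in Control monocyte/macrophage-like cells, a ratio of 1.53 (1.36 to 1.73). In Kupffer-like cells Lgals3 had 378 CPM in pIVCL and 500.3 CPM in Control, a ratio of 0.756 (0.670 to 0.852). LSEC-like cells were held by different clusters in the libraries. A cluster led by Esm1 and Lyve1 held 421 of 426 pIVCL cells, and one led by Dnase1l3 and Aqp1 held 716 of 754 Control cells. The Clec4g ratio thus compares those clusters too. Hepatocyte-like cells also differed: 1 cluster had 676 pIVCL and 8 Control cells, another 2 pIVCL and 218 Control cells. Kupffer-like cells lay in a shallow cluster (623 pIVCL, 184 Control) and a deeper one (152 pIVCL, 138 Control). The Fgl1 ratio and the Kupffer-like ratios therefore compare mixtures of clusters as well.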
